A study of Mus musculus with 24 samples.

Results

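The Bcl2 family holds the genes that decide whether the mitochondrial outer membrane is opened during apoptosis. Here 10 of them were followed in dermal papilla (DP) cells, the mesenchymal niche at the base of the hair follicle. The members were chosen by gene symbol and are the antiapoptotic Bcl2, Bcl2l1 and Mcl1, the effectors Bax and Bak1, and the BH3-only genes Bbc3, Pmaip1, Bid, Bcl2l11 and Bmf. They are 10 of the 25755 genes counted in each of 24 RNA-seq libraries, and all 10 passed the filter on low values in every comparison.

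Control mice were compared with mice in which both Hdac1 and Hdac2 are floxed on each allele and recombined in the DP, designated dM1/2 (Cor-cre/+; Hdac1 Flox/Flox; Hdac2 Flox/Flox). The DP-specific Corin-Cre line drives the deletion, and it is present in the controls too, which also bear floxed Hdac1, Hdac2 or a combination of them. In some control genotypes 1 of the 2 genes is homozygous for the floxed allele, and the labels do not say which control genotype a library has. The Cre line was on an FVB background and the floxed and EYFP reporter lines on C57BL/6J. DP cells labeled with YFP were sorted in 2 rounds from the dorsal skin of individual mice at P20 (the first telogen, females), P24 and P28 (early and mid anagen of the second cycle, males) and P60 (the second telogen), with 3 mice per genotype at each age. Xist, which is transcribed from the inactive X chromosome, was abundant in all libraries of P20 and P60 and at most 3.9 normalized reads in those of P24 and P28, so that the P60 libraries were female by this measure. Values are given as normalized reads, meaning reads of a gene after division by its library's size factor.

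In healthy cells the antiapoptotic proteins hold Bax and Bak1 in check. BH3-only proteins respond to damage, loss of growth factors or detachment by binding the antiapoptotic proteins or by engaging Bax and Bak1 directly. Once Bax or Bak1 form pores, cytochrome c leaves the mitochondria, the apoptosome assembles around Apaf1, and caspases dismantle the cell. Bax, Bbc3 (Puma) and Pmaip1 (Noxa) are known targets of p53, while Bcl2l11 (Bim) and Bbc3 can also be induced by FoxO factors. DP cells are known to survive catagen for the most part, when the epithelium around them dies by apoptosis. The study nonetheless often saw apoptotic DP cells in control follicles in catagen. The comparisons here ask how transcripts of the family stood without Hdac1 and Hdac2 in telogen and anagen.

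Libraries held 11635062 to 13369732 reads on genes at P20, 35469841 to 49331751 at P24, 37171260 to 48331795 at P28 and 8171944 to 9724000 at P60. The fewest reads behind any value of a member were 15, for Pmaip1. Hdac1 was between 668 and 675 normalized reads in P24 controls and between 116 and 209 in P24 dM1/2 (log2 fold change -2.01, limma adjusted p = 0.00167). At P28, Hdac1 stood at 214, 529 and 105 in the 3 controls and at 190, 149 and 126 in dM1/2, so that the library labelled P28 control 3 was below every mutant of that age. Hdac1 did not pass the test at P20, P28 or P60, and Hdac2 passed it at no age. These counts cover all exons of a gene, and reads of the floxed exons alone were not analysed here. The library labelled P28 control 2 also stood apart, with 19.8% of its reads on Col1a1, while the gene with most reads took 5.33% to 10.9% in the other 5 libraries of that age. Fold changes of the members at P28 are therefore also given without P28 control 3 and without P28 control 2, and ratios and marker sums of single libraries are shown as they are. Leaving out P28 control 2 keeps only the controls with low Hdac1, at 214 and 105. Each of 12 DP markers (among them Corin, Alpl, Vcan and Lef1) was detected in every group, and their summed level was at least 15509 normalized reads. The sums were 104 to 805 for 9 keratinocyte, 151 to 1259 for 8 immune and 228 to 1280 for 5 endothelial markers. For 6 melanocyte and 6 muscle markers they were 247 to 2764 and 350 to 5536. No list covered dermal sheath or other dermal fibroblasts, so that these sums do not set DP cells apart from those. The muscle sums were highest in telogen libraries.

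The sequences before the start sites of the 3 members that passed the test at both anagen ages are printed to show what their promoters hold. RefSeq start sites on GRCm38.p6 were matched by symbol for 9 of the 10 members. Pmaip1 was not matched. Each line gives the 250 bases before the most upstream start, 5′ to 3′ on the strand of the gene, with matches to any of 5 motifs in capitals.
Bax (chr7:45466899-45467148, minus strand): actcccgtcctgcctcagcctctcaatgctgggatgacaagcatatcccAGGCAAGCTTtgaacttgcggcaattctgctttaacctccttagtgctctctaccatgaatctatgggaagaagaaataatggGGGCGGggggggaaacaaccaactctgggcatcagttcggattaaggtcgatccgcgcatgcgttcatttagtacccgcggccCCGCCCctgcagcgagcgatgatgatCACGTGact
Bbc3 (chr7:16309333-16309582, plus strand): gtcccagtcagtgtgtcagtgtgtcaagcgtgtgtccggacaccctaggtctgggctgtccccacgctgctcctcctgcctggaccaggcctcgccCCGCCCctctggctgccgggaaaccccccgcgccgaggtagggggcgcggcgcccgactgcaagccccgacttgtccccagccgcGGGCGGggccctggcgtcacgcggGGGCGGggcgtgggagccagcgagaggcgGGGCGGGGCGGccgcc
Bcl2l1 (chr2:152831729-152831978, minus strand): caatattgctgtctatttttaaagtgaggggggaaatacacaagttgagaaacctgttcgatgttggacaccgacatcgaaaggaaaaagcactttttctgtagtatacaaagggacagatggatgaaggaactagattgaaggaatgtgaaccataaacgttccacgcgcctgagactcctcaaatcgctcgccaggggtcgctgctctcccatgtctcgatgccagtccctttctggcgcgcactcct
The motifs, searched on both strands, were the GC box (GGGCGG), the E-box (CACGTG), the CCAAT box (CCAAT), a forkhead site (GTAAACA) and the p53 half-site. They occur in 32.7%, 6.02%, 33.8%, 3.17% and 7.13% of 32851 promoters of the same length. The Bax window held 1 p53 half-site, 2 GC boxes and 1 E-box, at a GC content of 54.0%. The Bbc3 window held 5 GC boxes, of which the last 2 overlap, at a GC content of 76.4%. The Bcl2l1 window held none of the 5 motifs and had 47.6% GC, with a median of 52.4% over all promoters. Bax has 1 RefSeq start, while Bbc3 and Bcl2l1 have 3 each. The Bbc3 window lies inside the GENCODE span of the gene, which begins further upstream at chr7:16308393, so that it is not the sequence before that start. A match is a run of letters in this window and says nothing about a bound factor.

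On GRCm38, Bcl2 lies at chr1:106538178-106714274, Bcl2l1 at chr2:152780668-152831728, Mcl1 at chr3:95658788-95663176, Bax at chr7:45461697-45466898, Bbc3 at chr7:16308393-16318205 and Bcl2l11 at chr2:128126038-128162547. Counts cover all annotated exons of each gene. The exons of Bid share 628 bases with Bcl2l13 on the opposite strand, which averaged 921 normalized reads, and those of Bak1 share 437 bases with Ggnbp1, which averaged 15.2. The Bax exons share 192 bases with Gm45808 on the same strand, which was not used here. The strand setting of the counting is not given in the sources used here, so that Bid reads in particular are uncertain.

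Per kb of exon and averaged over the 24 libraries, Mcl1 was the most abundant member, at 2988 normalized reads per kb. Bcl2 followed at 468 and Bax at 251. In the anagen mutants this order was turned, with group means of 335 for Bax and 283 for Bcl2 at P24 and of 477 and 301 at P28. Bmf (150), Bak1 (134), Bbc3 (124), Bcl2l1 (115) and Bcl2l11 (114) were close to each other, and Pmaip1 (55.3) and Bid (42.1) were lowest. The antiapoptotic members thus held both the highest levels of the family and, with Bcl2l1, one of the lower ones. Between single libraries the level of Pmaip1 differed most, by 71.1 times between the highest and the lowest, and that of Bak1 least, by 2.66 times. Without the library labelled P28 control 3, which held the lowest value, the figure for Pmaip1 was 11.9 times.

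**Figure D1:**
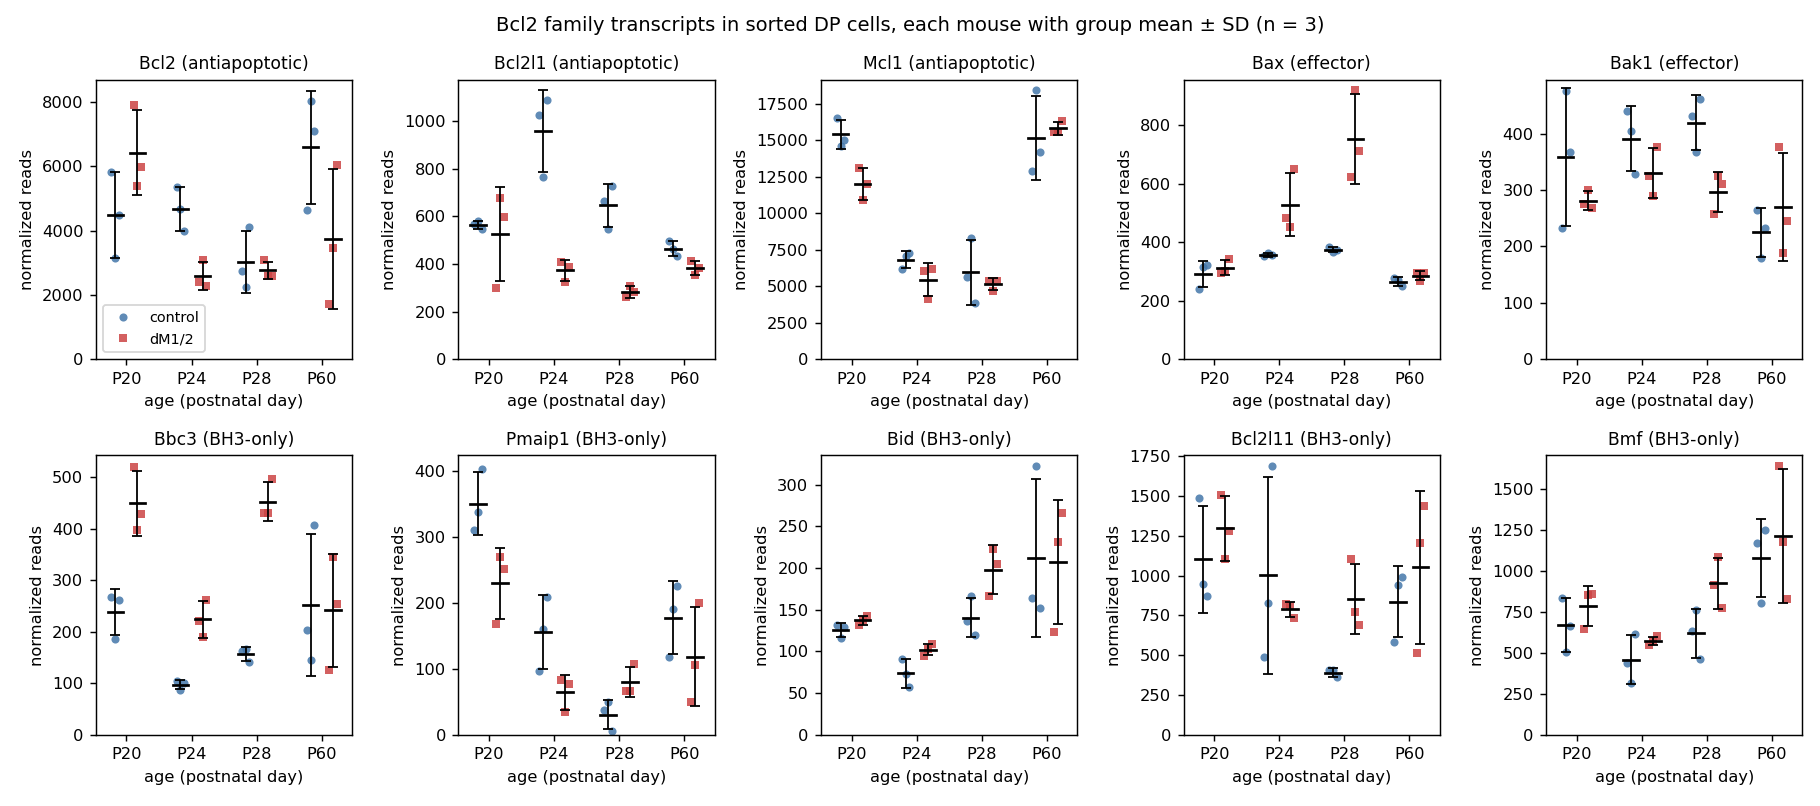
Normalized reads (vertical axes, linear, from 0) of the 10 genes in each library by postnatal age, with control mice as blue circles, dM1/2 mice as red squares, and black lines for the mean ± SD of 3 mice. Bcl2l1 lies at 765 or more in every P24 control and at 409 or less in every P24 mutant, whereas Bax is higher in all 3 mutants at P24 and P28.

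Bcl2l1 encodes Bcl-xL, which sequesters Bax, Bak1 and BH3-only proteins. It was lower in mutant DP cells at both anagen ages. At P24 the controls had 1026, 765 and 1088 normalized reads and dM1/2 had 409, 325 and 387. At P28 the controls had 665, 548 and 727 and dM1/2 had 259, 309 and 283. The lowest control was above the highest mutant at both ages. The fold change was -1.35 ± 0.17 on the log2 scale at P24 (SE, n = 3 against 3, limma adjusted p = 0.00232) and -1.18 ± 0.15 at P28 (limma adjusted p = 0.0018). The P28 call also held without the library labelled P28 control 3, at -1.09 (limma adjusted p = 0.00191), or without P28 control 2, at -1.29 (limma adjusted p = 0.00129). In telogen the groups were closer. P20 controls had 568, 579 and 548, and P20 mutants had 300, 677 and 599, which surround them. P60 controls had 495, 465 and 433 and P60 mutants had 414, 355 and 381, all below the controls, and the fold change was -0.28 ± 0.16, short of the threshold (limma adjusted p = 0.986). Ordered by group mean, P24 controls were highest (960 ± 172, SD, n = 3), with every library above the P28 controls (646 ± 91.1). P28 and P20 controls overlapped, as did P20 controls and P20 mutants, and P28 mutants were lowest (284 ± 25.1), below every library of the P24 mutants (373 ± 43.6).

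Bcl2, the founding member and a guard of the mitochondrial membrane like Bcl-xL, was lower in mutants at P24 but not at P28. P24 controls had 5359, 4662 and 4000 normalized reads and P24 mutants had 2392, 3088 and 2283, without overlap. The log2 fold change was -0.86 ± 0.17 (SE, n = 3 against 3, limma adjusted p = 0.00975). It did not pass in a single fit over all 24 libraries (limma adjusted p = 0.0691). P28 controls had 2753, 2242 and 4103, and P28 mutants had 3079, 2596 and 2599, so that the 2 groups overlapped. Here the log2 fold change was -0.10 ± 0.23 (limma adjusted p = 0.781), and it was 0.15 without the library labelled P28 control 3 and -0.29 without P28 control 2, neither of which passed. In P20 the order turned, with 5828, 3152 and 4471 in controls and 7904, 5378 and 5968 in mutants (log2 fold change 0.54, limma adjusted p = 0.218). Without P20 control 1 the difference passed, at 0.75 (limma adjusted p = 0.0437), while it was 0.31 without P20 control 2 and 0.38 without P20 dM1/2 mouse 1 (limma adjusted p = 0.499 and 0.452). At P60 controls had 4637, 8039 and 7106 and mutants had 1707, 3450 and 6041, so that the groups overlapped (log2 fold change -0.97, limma adjusted p = 0.986).

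Mcl1, a short-lived antiapoptotic protein that restrains Bak1 in particular, differed more between ages than between genotypes. P20 controls had 16536, 14620 and 15052 normalized reads and P60 controls 12884, 18418 and 14195, whereas P24 controls had 6177, 7038 and 7248 and P28 controls 5659, 8316 and 3879. The highest anagen control was thus below the lowest telogen control. All 3 mutants were below all 3 controls at P20 (13095, 10880 and 12031) and at P24 (6010, 4152 and 6160), with log2 fold changes of -0.36 ± 0.13 and -0.35 ± 0.18 that did not pass the test (limma adjusted p = 0.167 and 0.201, n = 3 against 3). At P28 and P60 the groups overlapped. The P28 fold change of -0.15 was -0.43 without the library labelled P28 control 3 and 0.12 without P28 control 2, and none of these passed.

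Bax, which forms the pore once activated, was higher in mutant DP cells in anagen. The 3 controls were close together at P24 (351, 363 and 355 normalized reads) and at P28 (383, 367 and 374). The mutants had 483, 452 and 650 at P24 and 623, 921 and 711 at P28, and each of them was above all controls of its age. The log2 fold change was 0.55 ± 0.16 at P24 (SE, n = 3 against 3, limma adjusted p = 0.0402) and 0.98 ± 0.16 at P28 (limma adjusted p = 0.00469). The P24 call was lost when any of 5 of the 6 libraries was left out (limma adjusted p from 0.0627 to 0.106), and held without P24 dM1/2 mouse 2. The P28 value was 0.98 without the library labelled P28 control 3 and 0.97 without P28 control 2, and both passed. In telogen Bax was between 241 and 342 in all libraries of P20 and between 249 and 295 in all of P60, with overlap between genotypes at both ages.

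Bak1, the other effector, which sits in the mitochondrial membrane, went the other way. P28 controls had 432, 367 and 461 normalized reads and P28 mutants 257, 324 and 310, below all controls. The log2 fold change was -0.50 ± 0.16 (SE, n = 3 against 3, limma adjusted p = 0.046). This call too was lost without any of 5 of the 6 libraries (limma adjusted p from 0.0813 to 0.142, and 0.0862 without the library labelled P28 control 3), and passed only without P28 control 2, where it was -0.59 (limma adjusted p = 0.0292). At P24 Bak1 was 441, 405 and 329 in controls and 326, 289 and 376 in mutants, which overlap. The groups also overlapped at P20 and P60. So at P28 the 2 effectors differed in direction.

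Among the BH3-only genes, Bbc3 had the clearest difference. It encodes Puma, which binds all antiapoptotic members. P24 controls had 105, 86.9 and 100 normalized reads and P24 mutants had 220, 190 and 262. P28 controls had 164, 167 and 141 and P28 mutants 432, 430 and 497. Every mutant was above every control of its age. The log2 fold change was 1.19 ± 0.18 at P24 (SE, n = 3 against 3, limma adjusted p = 0.00424) and 1.52 ± 0.15 at P28 (limma adjusted p = 0.000691), which is 2.28 and 2.88 times on this scale. The P28 call held without the library labelled P28 control 3 (1.45) and without P28 control 2 (1.57). Bbc3 was also higher in all 3 mutants at P20 (521, 398 and 429) than in all 3 controls (268, 187 and 261). That difference of 0.92 ± 0.19 had a limma adjusted p = 0.0651. It passed with DESeq2 (adjusted p = 0.0038) and without P20 control 1 (limma adjusted p = 0.0212). At P60 the groups were mixed, with 204, 145 and 408 in controls and 126, 345 and 254 in mutants. P28 and P20 mutants had the highest means (453 ± 38.2 and 449 ± 63.7, SD, n = 3) and overlapped, while P24 controls were lowest (97.2 ± 9.31), below all P28 controls.

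Bcl2l11 encodes Bim, a potent activator of Bax that also binds every antiapoptotic protein. It was higher in mutants at P28, where controls had 407, 405 and 361 normalized reads and mutants 1102, 773 and 687. The groups did not overlap, and the log2 fold change was 1.10 ± 0.19 (SE, n = 3 against 3, limma adjusted p = 0.00558). The call held without the library labelled P28 control 3 (1.04) and without P28 control 2 (1.12). P24 controls ranged from 488 over 828 to 1688, and the mutants (822, 807 and 734) lay inside this range. The P24 fold change of -0.16 became 0.31 without P24 control 3, neither of which passed the test. At P20 and P60 the groups overlapped as well.

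Pmaip1 encodes Noxa, which binds Mcl1 with preference. It stood on opposite sides of the controls at the 2 anagen ages. P24 controls had 97.1, 161 and 209 normalized reads and P24 mutants 82.9, 33.9 and 77.1, all lower. P28 controls had 37.4, 49.3 and 5.7 and P28 mutants 66.9, 66.8 and 107, all higher. Neither difference passed the test. The log2 fold change was -1.29 ± 0.41 at P24 (SE, n = 3 against 3, limma adjusted p = 0.054) and 1.76 ± 0.75 at P28 (limma adjusted p = 0.112). DESeq2, which called 33.5% of all genes at P24, called this value (adjusted p = 0.00989), as did limma without P24 control 1 (adjusted p = 0.0377). The library labelled P28 control 3 had 15 reads of Pmaip1. Without it the fold change was 0.85 (limma adjusted p = 0.0655), and without P28 control 2 it was 2.31 (limma adjusted p = 0.0462). P20 controls had 311, 338 and 404, above every anagen library. P20 mutants had 168, 270 and 252, which lay below the P20 controls (log2 fold change -0.63, limma adjusted p = 0.148). P60 controls had 118, 191 and 226 and P60 mutants 50.5, 106 and 200. Both P60 groups overlapped each other and the P24 controls.

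Bid links death receptors to mitochondria once caspase 8 has cleaved it, and Bmf is a BH3-only protein that is tied to the cytoskeleton in attached cells. At P28 neither passed the test, with all mutants above all controls for both. Bid had 136, 166 and 119 normalized reads in P28 controls and 166.3, 223 and 205 in P28 mutants, and at P24 91.3, 72.3 and 57.2 in controls and 94.9, 103 and 109 in mutants. The groups did not overlap at either age, although at P28 the gap was under 1 normalized read. The log2 fold changes were 0.49 ± 0.23 at P24 and 0.50 ± 0.20 at P28 (n = 3 against 3, limma adjusted p = 0.149 and 0.0964). The P28 value of Bid was 0.39 without the library labelled P28 control 3 and 0.62 without P28 control 2 (limma adjusted p = 0.177 and 0.051). Bmf had 632, 761 and 462 in P28 controls and 916, 1084 and 774 in P28 mutants, a log2 fold change of 0.60 ± 0.22 (limma adjusted p = 0.0721) that passed without P28 control 2 (limma adjusted p = 0.028) and fell to 0.40 without the library labelled P28 control 3. At P24 the genotypes overlapped for Bmf, and the fold change of 0.38 passed without P24 control 3, at 0.62 (limma adjusted p = 0.033), and was 0.14 without P24 control 2 (limma adjusted p = 0.663).

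**Figure D2:**
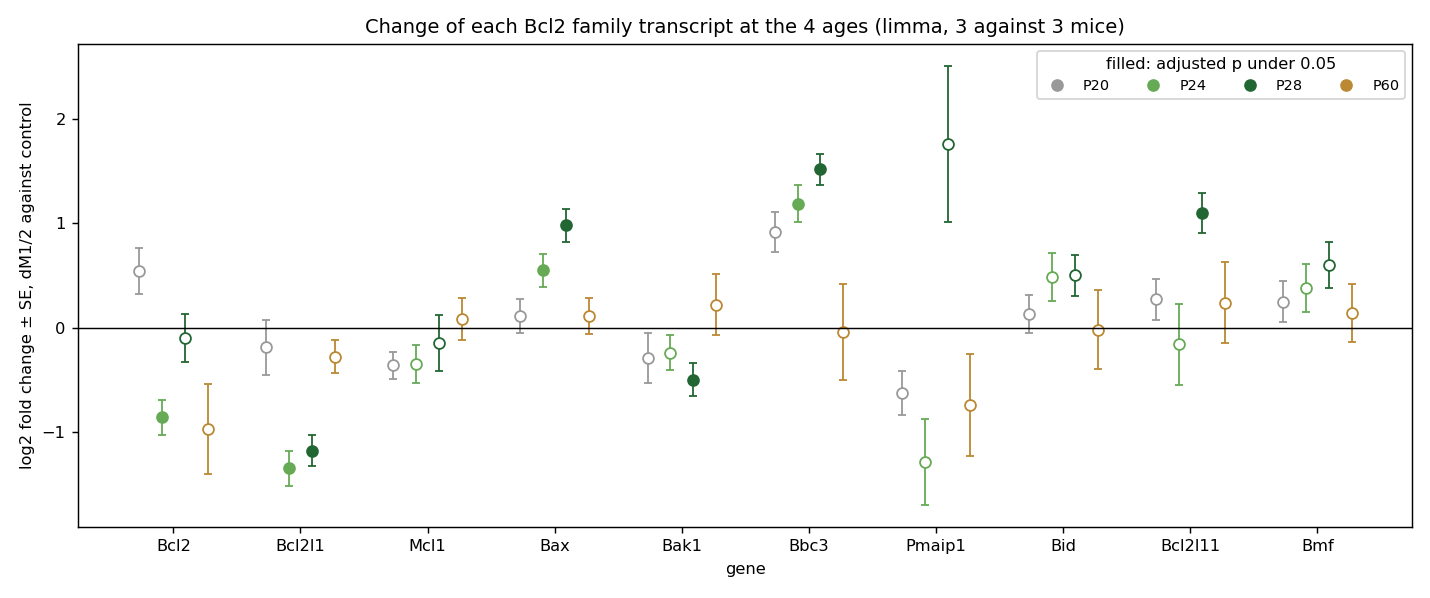
Log2 fold change of dM1/2 against control with its SE (vertical axis) for each gene at the 4 ages, from limma on 3 against 3 mice; filled points have an adjusted p under 0.05. Filled points occur only at P24 (Bcl2, Bcl2l1, Bax, Bbc3) and P28 (Bcl2l1, Bax, Bak1, Bbc3, Bcl2l11), and the largest bar is that of Pmaip1 at P28.

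Counted over the family, 2 members rose and 2 fell at P24, while 14.8% of all 14028 genes tested rose and 11.8% fell. At P28, 3 members rose (Bax, Bbc3 and Bcl2l11) and 2 fell (Bcl2l1 and Bak1), beside 20.0% and 15.6% of 14126 genes. The shares of members called, 4 and 5 of 10, stand beside large shares of all genes. Of the antiapoptotic members, Bcl2l1 was called at both ages and Bcl2 at P24 only, and these fell. Of the BH3-only members, Bbc3 was called at both ages and Bcl2l11 at P28 only, and these rose. Bax rose at both ages and Bak1 fell at P28. Pmaip1 was not called by limma, and its P24 mutants were below all controls (log2 fold change -1.29, limma adjusted p = 0.054). A common direction of a class of members was not tested. The median log2 fold change of the 10 members was -0.20 at P24 and 0.55 at P28, beside -0.01 and 0.00 over all genes. At P20, limma called none of the members (4 had an unadjusted p under 0.05), edgeR called none and DESeq2 called Bbc3 (and 5.58% of genes), beside 0.354% of genes called higher and 0.0795% called lower by limma. At P60 limma, edgeR and DESeq2 called no member and none had an unadjusted p under 0.05. Limma called 0% of the 14042 genes tested there (525 had an unadjusted p under 0.05), edgeR called 0 and DESeq2 26. Without any test, the 3 mutants did not overlap the 3 controls for 4 members at P20, 7 at P24, 8 at P28 and 1 (Bcl2l1) at P60, beside 25.4%, 44.8%, 51.3% and 8.87% of all genes tested.

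Markers of cycling cells moved with these changes. The summed level of Mki67, Top2a, Cdk1, Ccnb1, Pcna and Mcm2 was 2378 to 6054 normalized reads in P24 controls and 8948 to 11451 in P24 mutants, and 984 to 1167 in P28 controls and 6687 to 8090 in P28 mutants. All 6 of them rose at both ages, and at P28 also without either of the 2 controls named above. The summed level of the 12 DP markers was 263768 to 343778 in P24 controls and 129560 to 174492 in P24 mutants (7 of 12 fell and 1 rose). At P28 it was 118456 to 320078 in controls and 91697 to 111569 in mutants (3 fell and 2 rose, and without P28 control 2, 7 fell and 2 rose). At P20 it was 31139 to 36918 in controls and 43089 to 59996 in mutants (1 rose), and at P60 31462 to 41014 in controls and 15509 to 38445 in mutants (none passed the test, and the median log2 fold change was -1.05). With all libraries, no marker of keratinocytes, melanocytes, immune cells, endothelial cells or muscle passed the test upward in mutants at any age, although 1 muscle marker did at P28 without P28 control 2. At P24, 2 keratinocyte markers, 1 immune marker and 1 endothelial marker fell. The part of these markers in the results on the family was not tested. In sorted populations, a change in the RNA per cell and a change in the share of cells that express a gene cannot be told apart.

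The balance within each library was read as ratios of normalized reads per kb, as a description without a test. Bax over Bcl2l1 was 0.995, 1.38 and 0.95 in P24 controls and 3.44, 4.05 and 4.89 in P24 mutants. In P28 controls it was 1.68, 1.95 and 1.5, and in P28 mutants 7, 8.67 and 7.3. Thus each anagen mutant had at least 3 times as much Bax as Bcl2l1 per kb, and no control library of any age reached 2. In telogen the ratio was 1.24, 1.58 and 1.71 in P20 controls against 2.87, 1.29 and 1.66 in mutants, and at P60 it was 1.63, 1.69 and 1.67 against 2.08, 2.19 and 2.25. The P60 values did not overlap either, although neither gene passed the test at that age. Bbc3 over Bcl2l1 averaged 0.221 ± 0.0234 (SD, n = 3) in P24 controls and 1.30 ± 0.151 in P24 mutants, and 0.535 ± 0.119 and 3.46 ± 0.408 at P28. At P20 it was 1.02, 0.696 and 1.03 in controls and 3.75, 1.27 and 1.55 in mutants, also without overlap, and at P60 the genotypes overlapped, with means of 1.2 and 1.4. The sum of both effectors over the sum of the 3 antiapoptotic members stayed below 1 in every library. It was 0.143 ± 0.0129 in P24 controls, 0.242 ± 0.0294 in P24 mutants, 0.195 ± 0.0545 in P28 controls and 0.327 ± 0.0846 in P28 mutants, and between 0.0385 and 0.0836 in all telogen libraries. Most of the antiapoptotic sum is Mcl1, which averaged 2988 per kb beside 468 for Bcl2 and 115 for Bcl2l1. The ratio therefore follows Mcl1, which differed between ages, and its level depends on the exon lengths used.

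**Figure D3:**
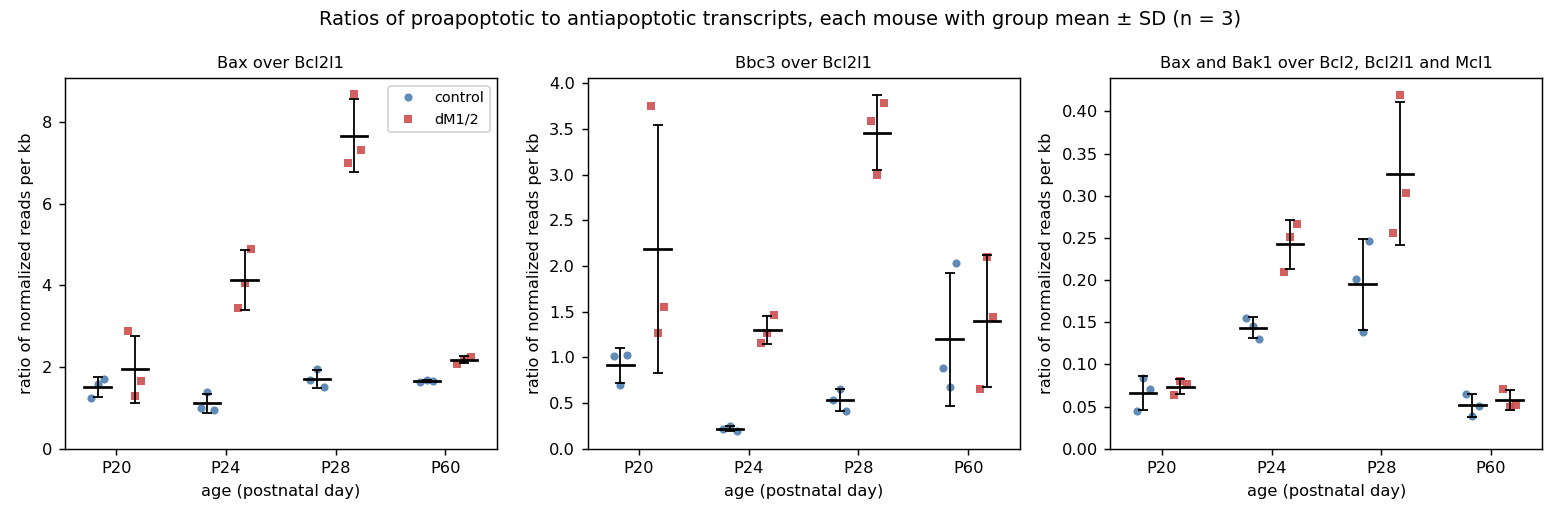
Ratios of normalized reads per kb of exon (vertical axes, linear, from 0) in each library by age, with blue circles for controls, red squares for dM1/2 and black lines for the mean ± SD of 3 mice. The Bax to Bcl2l1 ratio of the 6 anagen mutants lies between 3.44 and 8.67, above every other library.

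Next, the difference between the effect of the mutation in anagen (mean of P24 and P28) and in telogen (mean of P20 and P60) was tested over all 24 libraries. It was -1.03 ± 0.21 on the log2 scale for Bcl2l1 (SE, limma adjusted p = 0.00124), 0.66 ± 0.15 for Bax (limma adjusted p = 0.00273) and 0.92 ± 0.32 for Bbc3 (limma adjusted p = 0.033). Bcl2l1 thus fell more, and Bax and Bbc3 rose more, in anagen than in the mean of the 2 telogen ages. These are 2 members called higher and 1 called lower, beside 16.1% and 14.1% of 14243 genes. For Bbc3 the telogen ages were unlike each other, with a log2 fold change of 0.92 ± 0.19 at P20 and -0.04 ± 0.46 at P60. The P20 value was close to that of P24, 1.19 ± 0.18. The calls of Bcl2l1 and Bax held in the absence of any single library. Bbc3 lost its call without P20 control 1 or 3, P20 dM1/2 mouse 2, P24 control 2, P24 dM1/2 mouse 3, P28 dM1/2 mouse 3, P60 control 3 or P60 dM1/2 mouse 1, with limma adjusted p from 0.0507 to 0.0614. Anagen libraries came from males and held more reads than those of telogen, which came from females, so that stage, sex and depth cannot be told apart. The effect of the mutation itself was measured within each age.

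The effect did not pass for a difference between P28 and P24 in any member with limma or edgeR, although 3 had an unadjusted p under 0.05 (Bcl2, Pmaip1 and Bcl2l11). Over all genes 0.453% were called higher and 0.255% lower. The largest value was that of Pmaip1, at 3.05 ± 0.93 on the log2 scale (SE, n = 3 in each of 4 groups, limma adjusted p = 0.188). DESeq2 called Pmaip1 (adjusted p = 0.0475) and 4.21% of genes for this difference. The value was 2.14 without the library labelled P28 control 3 and 3.60 without P28 control 2, and neither passed (limma adjusted p = 0.118 and 0.0876).

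In control mice alone, the mean of anagen (6 libraries of P24 and P28) was compared with that of telogen (6 libraries of P20 and P60). The ages of a stage were not always alike. For Bid, listed below as lower in anagen, P28 controls averaged 140 normalized reads and P20 controls 126. For Bak1 every anagen control lay within the range of P20 controls (233 to 476). Bmf overlapped between P20 controls (506 to 836) and P28 controls (462 to 761). Of the 10 members, 3 were higher in anagen and 5 lower, beside 23.8% and 21.9% of 14066 genes. Higher were Bcl2l1 (0.61 ± 0.11 on the log2 scale, limma adjusted p = 0.0011), Bax (0.40 ± 0.09, limma adjusted p = 0.0055) and Bak1 (0.54 ± 0.17, limma adjusted p = 0.0256). Lower were Mcl1 (-1.29 ± 0.17, limma adjusted p = 0.00021) and the BH3-only genes Pmaip1 (-2.05 ± 0.44, limma adjusted p = 0.00327), Bbc3 (-0.91 ± 0.22), Bid (-0.65 ± 0.20) and Bmf (-0.69 ± 0.20). Each of the 5 BH3-only genes had a lower mean in anagen, and the fold change of Bcl2l11, -0.67 ± 0.27, had a limma adjusted p = 0.0612. In controls, Bcl2l1 and Bbc3 differed between stages in the opposite direction to their change in anagen mutants, and Bax in the same direction. The same anagen controls enter both differences with opposite sign. Their spread alone pushes the differences apart, so that an opposite direction is no separate result. Bak1 lost its call without P24 control 1 or 2, P28 control 1, the library labelled P28 control 3 or P60 control 2 (limma adjusted p from 0.05 to 0.0635). Bcl2 (-0.52, limma adjusted p = 0.0541) passed without P20 control 2, the library labelled P28 control 3 or P60 control 1 (limma adjusted p from 0.0185 to 0.0253). Bcl2l11 passed without P24 control 3 (limma adjusted p = 0.00597) or P60 control 1 (limma adjusted p = 0.0424). Pmaip1 was at -1.60 without the library labelled P28 control 3 and at -2.33 without P28 control 2, and passed in both. Sex and depth went with the stage here as well, and the summed level of 6 muscle markers was 3666 to 5536 normalized reads in telogen controls and 350 to 2491 in anagen controls. Their part was not tested.

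**Figure D4:**
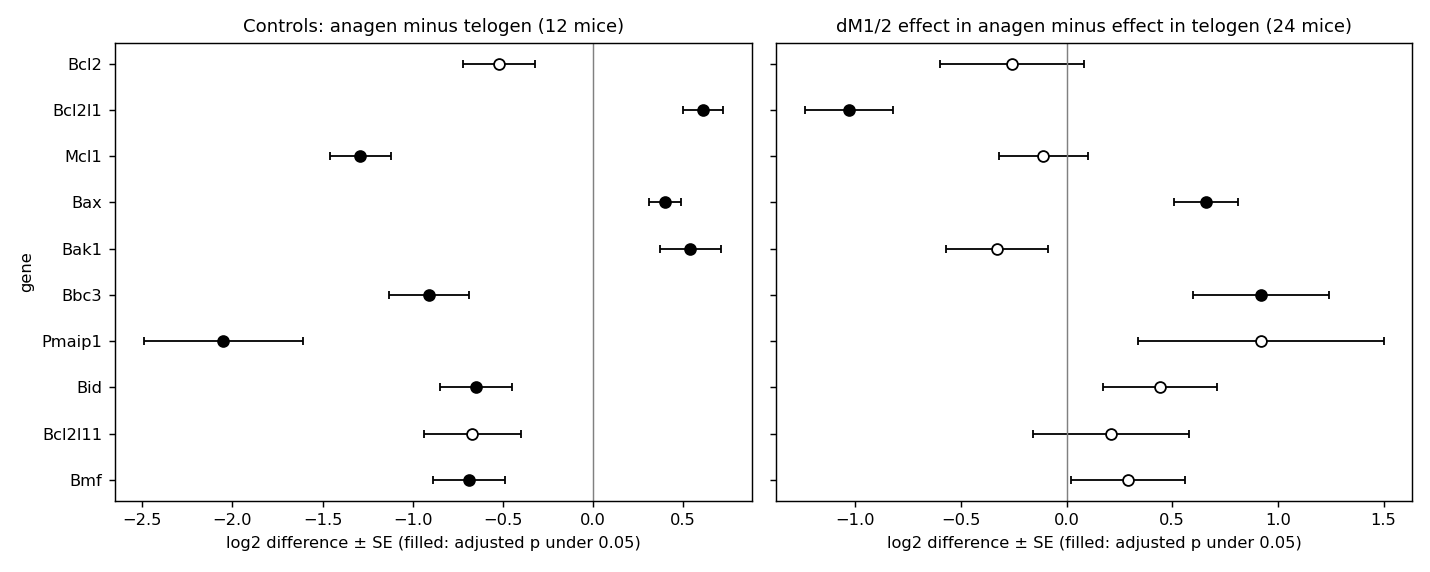
Log2 differences with their SE (horizontal axes) of the 10 genes, left between anagen and telogen in 12 control mice and right between the effect of the mutation in anagen and in telogen over 24 mice; filled points have a limma adjusted p under 0.05. On the left Bcl2l1, Bax and Bak1 lie to the right of 0 and 5 filled points to the left, and on the right Bcl2l1 is at -1.03, Bax at 0.66 and Bbc3 at 0.92.

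From P24 to P28, limma and edgeR called no member in controls, where 0.723% of genes rose and 0.738% fell, although 6 members had an unadjusted p under 0.05. DESeq2 called Bbc3, Pmaip1, Bid and Bcl2l11 there, beside 10.7% of genes. Limma called no member in this step without the library labelled P28 control 3 or without P28 control 2 either, and the value of Pmaip1 was -2.67 with all libraries, -1.77 without the former and -3.22 without the latter. In mutants 3 members rose between these ages and none fell, beside 1.69% and 0.983% of 14032 genes. They were Bbc3 (1.02 ± 0.15 on the log2 scale, SE, n = 3 against 3, limma adjusted p = 0.0158), Bid (0.94 ± 0.17, limma adjusted p = 0.0272) and Bmf (0.68 ± 0.14, limma adjusted p = 0.0443). The same step in controls was 0.69 ± 0.17 for Bbc3, 0.93 ± 0.25 for Bid and 0.46 ± 0.29 for Bmf, so that a step called in mutants alone is no difference between genotypes. The calls in mutants were not firm. Bmf lost its call in the absence of any of the 6 libraries (limma adjusted p from 0.0529 to 0.186). Bid lost it without P24 dM1/2 mouse 1 or 2 or P28 dM1/2 mouse 2 or 3 (0.0575 to 0.157), and Bbc3 without P24 dM1/2 mouse 1 or P28 dM1/2 mouse 2 or 3 (0.0546 to 0.0719).

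The wider pathway was read from 6 lists. Of their 46 genes tested, 7 rose and 5 fell at P24 and 8 rose and 5 fell at P28, which is 12 and 13 called in all. Among all genes 14.8% rose and 11.8% fell at P24 and 20.0% rose and 15.6% fell at P28, so that the lists held no larger share of calls than all genes. The list genes named below as called at P28 kept their call without the library labelled P28 control 3 and without P28 control 2. Of 18 other Bcl2 family genes, 9 passed the filter at P24 and at P28, and 1 fell at both ages while none rose. It was Bcl2l2 (Bcl-w), an antiapoptotic relative of Bcl-xL, with 898 ± 63.5 normalized reads in P24 controls and 601 ± 32.8 in P24 mutants (SD, n = 3), and 909 ± 39.8 and 546 ± 50.3 at P28. Its log2 fold change was -0.58 (limma adjusted p = 0.00987) and -0.74 (limma adjusted p = 0.004). Bcl2a1a, Bcl2a1b, Bcl2a1c and Bcl2a1d had no read in any library. Bad, Bok, Bnip3 and Bnip3l passed the test at no age.

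In the list of apoptosome and caspase genes, 2 of 5 rose at P24 and none fell. Named after their values were seen, they were Apaf1, the scaffold of the apoptosome (0.65 on the log2 scale, limma adjusted p = 0.00959), and Casp2 (0.42, limma adjusted p = 0.0288). Their values at P28 were 0.43 and 0.40 (limma adjusted p = 0.422 and 0.135). Of 8 inhibitors of apoptosis and their antagonists, 1 rose and 2 fell at P24, and 3 rose and 2 fell at P28. Xiap, which blocks caspases directly, fell by 0.58 and 0.89 on the log2 scale at the 2 ages (limma adjusted p = 0.0114 and 0.00242). Birc5 (survivin) rose by 1.59 and 2.96 (limma adjusted p = 0.01 and 0.000436). Birc5 is also a part of the chromosomal passenger complex of dividing cells, and the cycling markers above rose in the same libraries.

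In the death receptor list 2 of 9 genes tested rose and 2 fell at P24, and likewise at P28. Cflar, an inhibitor of caspase 8 at death receptors, went from 2273 ± 354 to 1076 ± 214 normalized reads at P24 (SD, n = 3) and from 3540 ± 824 to 962 ± 136 at P28. On the log2 scale that was -1.09 ± 0.19 (limma adjusted p = 0.006) and -1.86 ± 0.19 (limma adjusted p = 0.000861). The receptor genes Tnfrsf10b and Fas rose at both ages, by 1.07 and 1.29 and by 1.22 and 0.97 (limma adjusted p = 0.0354, 0.00064, 0.00582 and 0.0259). Of the known regulators of Bcl2 family transcription, 2 of 7 rose at P24 and 1 at P28, and none was called in the same direction at both ages. Named after their values were seen, they were E2f1 (1.42, limma adjusted p = 0.00296) and Foxo1 (0.45, limma adjusted p = 0.0369) at P24 and Trp53 (0.81, limma adjusted p = 0.00286) at P28. Trp53 was at 0.03 at P24 (limma adjusted p = 0.901). E2f1 and Foxo1 were at 1.63 and 0.45 at P28 (limma adjusted p = 0.0989 and 0.163). Without P28 control 2 both passed there, at 2.30 and 0.68 (limma adjusted p = 0.0117 and 0.0236). Without the library labelled P28 control 3 neither did, at 0.84 and 0.24 (limma adjusted p = 0.0627 and 0.309). Of 8 partners of the mitochondrial pore and of Mcl1 or Bim turnover, none was called at P24 and 2 rose at P28. By limma no gene of the 6 lists was called at P20 or P60, where 7 and 3 of the 46 genes tested had an unadjusted p under 0.05. The median log2 fold changes of the lists lay between -0.11 and 0.42 at P24 and between -0.27 and 0.40 at P28.

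**Figure D5:**
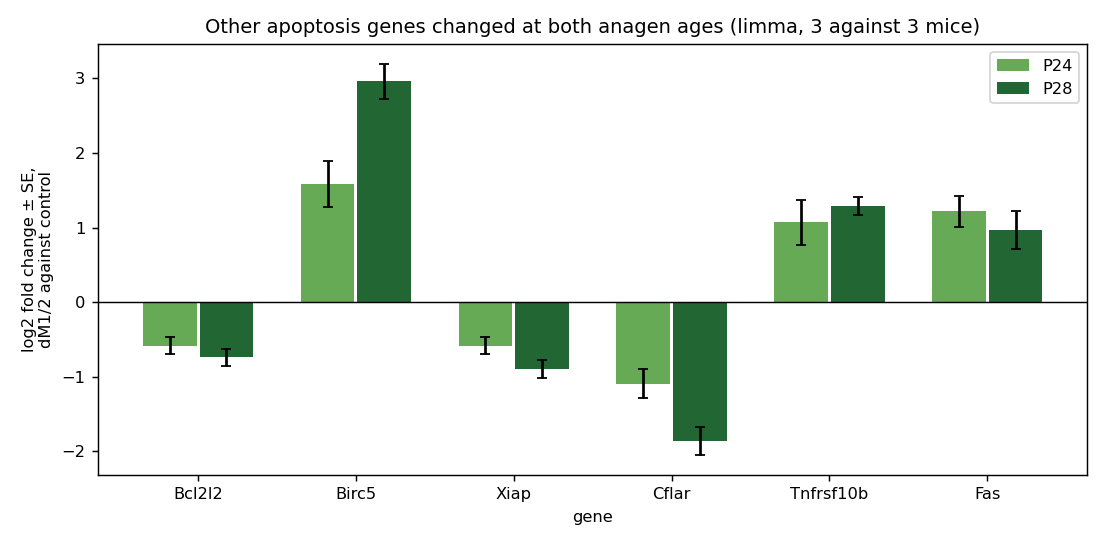
Log2 fold change with its SE (vertical axis) of 6 genes of the other apoptosis lists that passed the test in the same direction at P24 (light) and P28 (dark), from limma on 3 against 3 mice. Birc5, Tnfrsf10b and Fas lie above 0 and Bcl2l2, Xiap and Cflar below.

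Over the 24 libraries, which share age, depth and sex within a group, the genes whose pattern was most like that of Bax were Fh1 (Pearson r = 0.96), Ndufa10 (0.95) and Suclg1 (0.946), out of 14243 genes compared. For Bcl2l1 they were Matn2 (0.906), Tmem47 (0.861) and Rab39b (0.86), and for Bbc3 Cecr2 (0.89), 1700017B05Rik (0.884) and Sema6d (0.866). Among the members themselves Mcl1 and Bax had the lowest correlation, r = -0.77 over 24 libraries, but r = 0.01 once the mean of each group was subtracted. Bcl2l1 and Bbc3 had r = -0.68, and -0.25 within groups. Mcl1 and Pmaip1 had r = 0.69 over all libraries and 0.72 within groups. The library labelled P28 control 3 held the lowest value of both genes, and these correlations were not computed without it. Bak1 and Bcl2l11 were related with the opposite sign (-0.60 and -0.74). No p is given for these values.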

How the data were processed

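RNA of FACS-sorted DP cells was sequenced in 24 libraries (8 groups of 3 mice). Per the study's methods, libraries were directional and made after removal of ribosomal RNA. The authors used Trimmomatic for trimming, Tophat 2 for alignment to mm10, HTSeq for counting on Ensembl GRCm38.p4 and DESeq2 for normalization. The deposited signal is thus a count over its library's size factor. Dividing by the value of 1 read gave whole reads, within 0.001 reads, for 100% of values. Deposited fold changes and p-values of the authors were not used.

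The main test was limma 3.58.1 (R 4.3.3) (two-sided, with a mean trend) on log2(normalized reads + 1). Genes averaging under 10 normalized reads were left out, with Benjamini-Hochberg adjustment over all genes and a threshold of 0.05. Fold changes are on this scale. Alternatives were a pseudocount of 10, other filters, an adjusted p under 0.01, log2-CPM with TMM (prior count 2), a replicate block, a fit over all 24 libraries, edgeR 4.0.16 and DESeq2 1.42.0 on the recovered reads, and leaving out each library. The fits were run on simulated data with the same setting of spread for every gene and no outlying library. That simulation does not cover libraries such as the 2 P28 controls that stood apart. Members and lists were chosen with earlier results of these data known. Named were all members, Hdac1 and Hdac2, up to 4 genes per list called in the same direction at P24 and P28, and the 3 genes most like each member called at both ages. Exon lengths and positions come from GENCODE on GRCm38, and Septin4 was found under its older symbol Sept4. No 2 replicates of a group were copies of each other (lowest chi-square per gene between replicates 10.4). Depth is given with the results, and precision was taken from the spread between mice. Some genes of the lists are not reported here and were left out of their counts.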

Additional observations from a re-analysis of the deposited data

Results flagged for a closer look

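The effect of the mutation differed between anagen and telogen in 3 members of the family by limma over 24 libraries, beside 30.2% of all 14243 genes. The difference was -1.03 on the log2 scale for Bcl2l1 (SE 0.21, limma adjusted p = 0.00124), 0.66 for Bax (SE 0.15, limma adjusted p = 0.00273) and 0.92 for Bbc3 (SE 0.32, limma adjusted p = 0.033). In anagen every mutant was below every control of its age for Bcl2l1, and above for Bax and Bbc3, beside 44.8% of genes without overlap at P24 and 51.3% at P28. The call of Bbc3 was lost when any of 8 single libraries was left out (limma adjusted p from 0.0507 to 0.0614). Its log2 fold change was 0.92 at P20, close to the 1.19 of P24, and -0.04 at P60. Sex and depth differed between the stages together with the hair cycle, and their part cannot be told apart.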

How the results depend on the processing

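At P24 the 4 members called became 3 to 4 without single libraries, and at P28 the 5 became 4 to 7. With DESeq2, P20 had 1 member called instead of 0, the difference between the P28 and the P24 effect 1 instead of 0, and the step from P24 to P28 in controls 4 instead of 0. An adjusted p under 0.01 left 5 of 8 members between anagen and telogen in controls and 0 of 3 from P24 to P28 in dM1/2. Without single libraries, P20 had 0 to 2 members called and the step in dM1/2 had 0 to 2. A stricter threshold gives fewer calls by construction. For the other changes the cause was not tested. Of the other alternatives for these counts, 158 stayed within 1.5 times. With the replicate block, P20 had 2 members called (Bcl2 and Bbc3), P24 3 and P28 5. Correlations of same-numbered samples were 0.231, 0.082 and 0.116 at P20 and 0.344, 0.024 and 0.171 at P60. They were -0.179, 0.043 and -0.401 at P24 and -0.152, 0.027 and -0.229 at P28. Same-numbered samples thus did not deviate together at every pair, and the numbers were not taken to pair the mice. A pairing at P20 or P60 alone was not tested. The block also took the call from Bax at P24 (limma adjusted p = 0.0885) and Bak1 at P28 (0.108) and gave it to Bmf at P28 (0.0348). Over all genes the block moved the number called at P20 from 60 to 439, at P24 from 3735 to 2366, at P60 from 0 to 6, for the difference between the P28 and the P24 effect from 100 to 0 and from P24 to P28 in controls from 204 to 27. DESeq2 gave 668 at P20, 26 at P60, 595 for that difference, and 1494 in controls and 1127 in dM1/2 (from 375) for the step from P24 to P28. For the same difference a pseudocount of 10 gave 151 and a minimum of 10 normalized reads in every library 66. A single fit over 24 libraries gave 23 at P20 and 19 at P60, and took the calls of Bcl2 at P24 and Bak1 at P28 and gave one to Pmaip1 at P28 (adjusted p = 0.021).

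Without single libraries, the log2 fold change crossed 0 for members that did not pass the test. It ranged from -0.02 to 0.18 for Bax and from -0.41 to 0.17 for Bcl2l1 at P20, from -0.59 to 0.31 for Bcl2l11 at P24, and from -0.29 to 0.15 for Bcl2 and from -0.43 to 0.12 for Mcl1 at P28. At P60 it ranged from -0.05 to 0.45 for Bak1, from -0.37 to 0.37 for Bbc3, from -0.05 to 0.69 for Bcl2l11, from -0.24 to 0.32 for Bid, from -0.10 to 0.39 for Bmf and from -0.03 to 0.23 for Mcl1. The fewest reads behind a value of a member were 15, and with 3 mice per group the spread between mice sets the precision at every age.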
